A study of Mus musculus with 16 samples.

Results

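The cells described here are the macrophages (annotated MP by the authors) of the 8 mice whose left ventricle cells were spread over 2 plates. Of the 1413 macrophages among 11492 cells in all, 953 belonged to these mice. In each mouse, the 396 macrophages on the plate with the larger share of cardiomyocytes (annotated CM), called the myocyte-rich plate, were compared with the 557 on the other, myocyte-poor plate. Polyadenylated RNA of single left ventricle cells was sequenced in a model of transverse aortic constriction (a narrowed aorta loads the ventricle), and all mice were male. The 16 mice have stages named in weeks, and the 8 used here are the 2 mice of 0w, the 2 of 2w, replicates 2 and 3 of 8w and the 2 of 11w. The labels give no surgery for the 0w mice, no age and no sham group. The labels describe a digestion of slices meant to favour myocytes (collagenase II plus protease XXIV) and one meant to favour the remaining cells (an enzyme mix with papain). The labels do not tie a digestion to a plate, so digestion, plate and RNA released from other cells on a plate cannot be told apart.

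Both mice of a stage shared both plates of that stage. The comparison therefore rests on 8 mice but only 4 pairs of plates, and p-values over mice do not cover the spread between plates. Cardiomyocytes made up 36.71% to 90.86% of a mouse's cells on the myocyte-rich plates and 0.6601% to 24.27% on the others. The number of macrophages per mouse and plate ran from 6, in 8w replicate 3 on the myocyte-poor plate, to 114. The macrophage UMIs (unique molecular identifiers, which count captured RNA molecules) summed to between 80012 and 9363403 per mouse and plate. No cell name occurred more than once (11492 distinct names of 11492). On the myocyte-rich plate of 11w the matrix held only 0.461 to 0.5054 of the authors' UMI total per macrophage, mitochondrial genes left out, while on the other 7 plates both totals were equal.

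Macrophages of the heart are phagocytes that clear dying cells, present antigen through class II molecules of the major histocompatibility complex (MHC) and secrete complement proteins and cytokines. They do not build sarcomeres, the contractile units of cardiomyocytes, whose myosins, troponins and titin are among the most abundant transcripts of the ventricle. Cardiomyocytes are also packed with mitochondria that burn fatty acids, so transcripts of respiration mark them as well. Lysed cells release RNA that can be captured along with the RNA of an intact neighbour, and enzymatic digestion is known to switch on immediate early and stress genes in living cells.

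The macrophages carried far more RNA of cardiomyocyte marker genes on the myocyte-rich plates. The summed level of 20 cardiomyocyte markers in macrophages, in CPM (counts scaled to a common library total, mitochondrial genes left out), was lowest at 14655 (11w replicate 2), 74470 in the median and 132881 at the highest (2w replicate 2) on the myocyte-rich plates. On the myocyte-poor plates the lowest, median and highest levels were 1554, 4308 and 13756 CPM. The ranges did not overlap, and the level was higher in 8 of 8 mice. The mean ratio was 13.7-fold, with a mean log2 difference of 3.77 ± 1.16 (SD, n = 8 mice; exact sign-flip permutation test over mice, two-sided, p = 0.0141 adjusted over 9 measures). Over the 4 plate pairs the exact test gave p = 0.125, the smallest it allows.

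**Figure D1:**
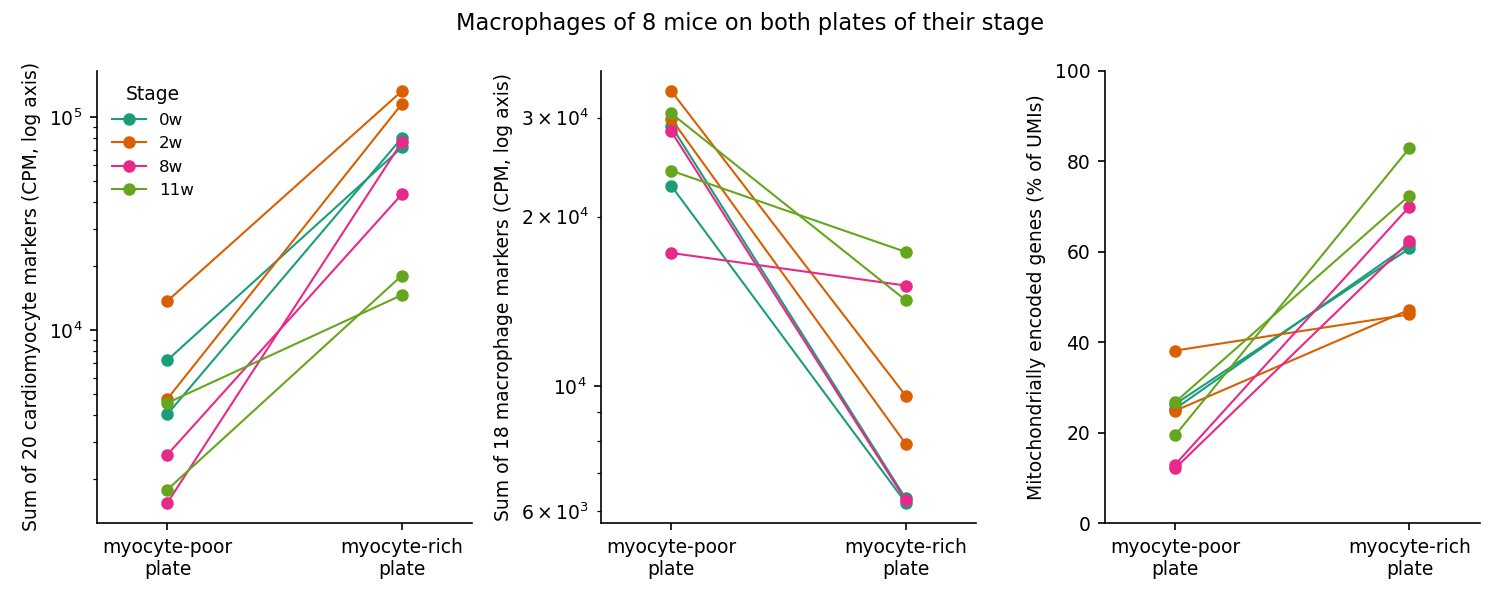
Summed cardiomyocyte markers and summed macrophage markers (both CPM without mitochondrial genes, log axes) and mitochondrially encoded genes (% of UMIs) in macrophages. Each line joins the myocyte-poor and the myocyte-rich plate of 1 of 8 mice, coloured by stage. Every line rises for cardiomyocyte markers and for mitochondrial genes, and every line falls for macrophage markers.

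Single cells showed the same shift. After thinning each cell to 1000 UMIs without mitochondrial genes, which left out 2 cells, the median macrophage on a myocyte-rich plate held 77.5 UMIs of the cardiomyocyte markers and 7 of the macrophage markers. Those medians were 3 and 26 on the myocyte-poor plates. All 394 thinned macrophages of the myocyte-rich plates held at least 1 cardiomyocyte marker UMI, against 457 of 557 (82.05%, exact Clopper-Pearson interval 78.6% to 85.15%, counting error only) on the other plates. Unthinned, the shares were 100% and 98.2%. In the macrophages of the 0w mice on the myocyte-rich plate, the median cell held 76.5 (replicate 1) and 62 (replicate 2) of these UMIs per 1000, while in the 11w mice it held 14 and 15.

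The level in macrophages was set against that of cardiomyocytes on the same myocyte-rich plate. For the 20 markers together, macrophages reached 82.17% of the cardiomyocyte level in the 0w pair. The 2w and 8w pairs gave 84.25% and 79.25%, and the 11w pair gave 34.36%. The lowest and highest single genes at 0w were Ttn, encoding titin, at 66.91% and Tnnc1, a troponin, at 96.25%. The range of single genes was 71.11% (Pln, phospholamban) to 95.57% (Cox7a1) at 2w, 49.81% (Ryr2, the calcium release channel) to 102.1% (Myom1) at 8w, and 24.75% (Myl2) to 53.25% (Actn2) at 11w. Endothelial cells (EC) of the myocyte-rich plates reached 32.65% to 87.07%, fibroblasts (FB) 27.97% to 62.76% and T cells 45.52% to 78.01%. On the myocyte-poor plates the same ratio was 1.942% to 6.195% in macrophages, 2.477% to 8.982% in endothelial cells and 1.748% to 6.287% in fibroblasts. T cells of those plates ranged from 1.987% to 21.67%. Some groups were small, with 12 endothelial cells at 0w and 7 T cells at 8w on the myocyte-rich plates. These ratios are descriptions with no test.

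**Figure D2:**
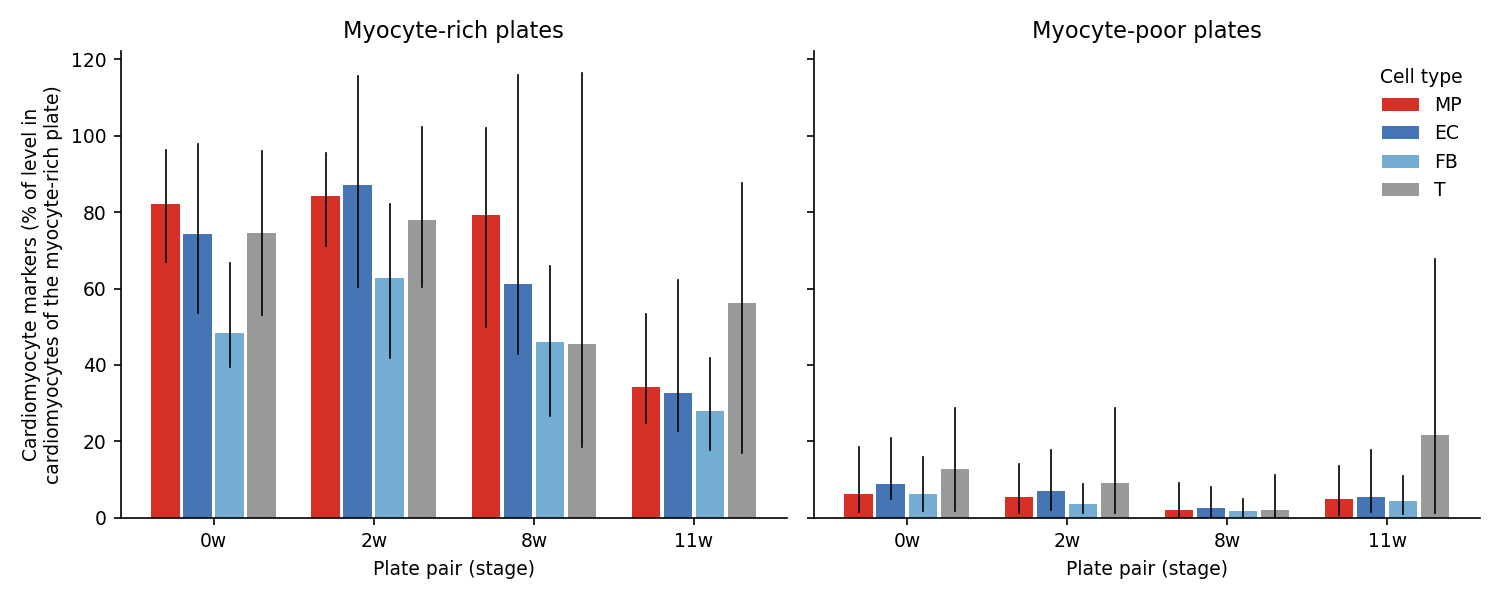
Summed level of 20 cardiomyocyte markers (bars, % of the level in cardiomyocytes of the myocyte-rich plate of the pair) in macrophages (MP), endothelial cells (EC), fibroblasts (FB) and T cells (T), by plate pair, with thin lines from the lowest to the highest single gene. Bars for macrophages lie between 34.36% and 84.25% on the myocyte-rich plates and at or under 6.195% on the others.

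Mice that were on 1 plate only followed the same order, as a description across plates. Macrophages of 5w replicates 2 and 3, whose plate held 0% cardiomyocytes among their cells, had 966 and 2597 CPM of the cardiomyocyte markers. Those of 5w replicates 4 to 7, with 91.15% to 95.82% cardiomyocytes, had 49127 to 86030 CPM. The 5w replicate 1 (8.024% cardiomyocytes) and 8w replicate 1 (20.92%) lay between, at 3818 and 7453 CPM.

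**Figure D3:**
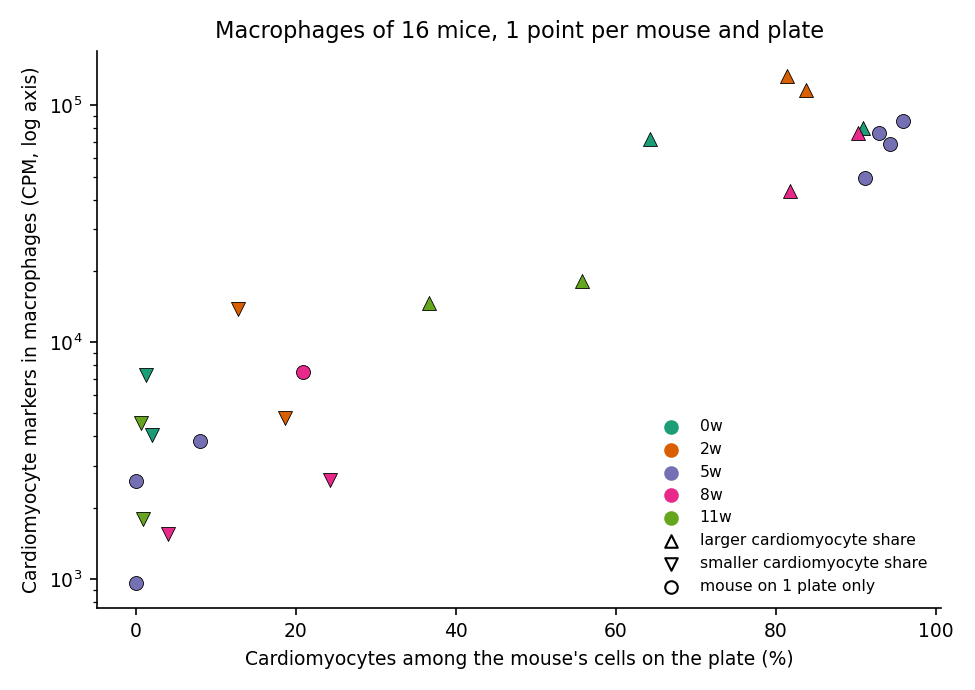
Share of cardiomyocytes among a mouse's cells on a plate (%) against the summed cardiomyocyte marker level in its macrophages (CPM without mitochondrial genes, log axis), 1 point per mouse and plate, coloured by stage. Points with under 25% cardiomyocytes lie at or under 13756 CPM, and all others lie at or above 14655 CPM.

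Macrophage markers were checked in the same cells, as a description, because the annotation was made from the same expression values. The summed level of 18 macrophage markers in macrophages of the myocyte-rich plates was 6209 at the lowest, 8758 in the median and 17311 CPM at the highest. Cardiomyocytes of the same plates had 175 to 623 CPM, so macrophages had 12.1 to 70.3 times their level (median 29.6). Against endothelial cells of the same mouse and plate the ratio was 2.75 to 126 (median 32.9), and against fibroblasts 8.64 to 132 (median 27.3). At most 1 of the 18 markers was at 0 in a mouse on the myocyte-rich plates and at most 4 on the others, in the 6 cells of 8w replicate 3. On the myocyte-poor plates the summed level was 17237 at the lowest, 28665 in the median and 33426 CPM at the highest. It was lower on the myocyte-rich plate in 8 of 8 mice, with a ratio of 0.362-fold on this scale, on which added cardiomyocyte RNA lowers the share of every other gene. Macrophages of 5w replicates 4 to 7 (27, 11, 12 and 12 cells) had 49127 to 86030 CPM of cardiomyocyte markers. Their macrophage markers summed to 18311 to 21040 CPM. These mice were on 1 plate only and allow no paired comparison.

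Mitochondrially encoded genes, which code for subunits of the respiratory chain and for mitochondrial ribosomal and transfer RNAs, took a larger share of the UMIs of macrophages on the myocyte-rich plates. The share was 46.1% at the lowest, 61.9% in the median and 82.9% at the highest there. The values were 12.1%, 25.0% and 38.1% on the myocyte-poor plates. The ranges did not overlap, and the mean difference was 39.7 ± 18.3 percentage points (SD, n = 8 mice; exact sign-flip permutation test, two-sided, adjusted p = 0.0141). Cardiomyocytes of the myocyte-rich plates had 47.1% to 88.4%.

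The median UMIs per macrophage were 2.60-fold higher on the myocyte-rich plate, in 7 of 8 mice (exact sign-flip permutation test, adjusted p = 0.0234). Without mitochondrial genes the ratio was 1.13-fold, with 3 of 8 mice higher (adjusted p = 0.719). Median genes per macrophage were 1.41-fold higher, in 8 of 8 mice (exact sign-flip permutation test, adjusted p = 0.0141). Macrophages made up 42.4% of the cells other than cardiomyocytes on the myocyte-rich plates and 16.4% on the others, on average over mice, higher in 8 of 8 (exact sign-flip permutation test, adjusted p = 0.0141). A digestion or a selection of cells could set such shares, and their part in it was not tested.

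Fibroblast and endothelial markers in macrophages were not higher on the myocyte-rich plates. Fibroblast markers in macrophages had a median of 1944 CPM (488 to 3979) on the myocyte-rich and 3474 CPM (1220 to 8368) on the myocyte-poor plates. The ratio was 0.510-fold, lower in 7 of 8 mice (exact sign-flip permutation test, adjusted p = 0.0703). For endothelial markers the medians were 587 CPM (228 to 2335) and 1314 CPM (158 to 2789), with a ratio of 0.606-fold, lower in 6 of 8 mice (exact sign-flip permutation test, adjusted p = 0.220). Both sets of ranges overlapped. Added cardiomyocyte RNA lowers the share of every other gene on this scale. Macrophage markers had a ratio of 0.362-fold on it, lower than either of these ratios. The part of added RNA in them was not tested.

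Gene by gene, UMI sums per mouse and plate were fitted with edgeR's quasi-likelihood test with the mouse as a block. Of 7946 genes tested, 460 (5.79%) were higher on the myocyte-rich plate and 100 (1.26%) were lower, 560 in all (7.05%), at an adjusted p under 0.05 (Benjamini-Hochberg over all genes tested). The median log2 fold change of all genes tested was 0.11. The count of lower genes depended on single mice. It was 50 without 0w replicate 1, 40 without 0w replicate 2, 50 without 2w replicate 1, 64 without 2w replicate 2, 59 without 8w replicate 2 and 198 without 8w replicate 3. With the mice of a plate summed into 1 library per plate, which takes the plate as the unit, 300 genes were higher and 52 lower. In that fit 300 of the 560 genes passed, and all 560 kept their direction. Without the 0w plate pair 204 genes were higher and 14 lower, and without the 2w pair 223 and 32. Levels of all mice on the myocyte-rich plates lay above all levels on the others for 109 genes (1.37%) and below them for 23 (0.289%).

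Genes of the contractile apparatus led the higher genes. All 20 cardiomyocyte markers were tested and all 20 rose, with a median log2 fold change of 4.20. Myh6, the main myosin heavy chain of the adult mouse ventricle, had in macrophages a lowest normalised level of 587 CPM, a median of 3401 and a highest of 9988 on the myocyte-rich plates (CPM here scaled with TMM factors). On the myocyte-poor plates the values were 17.4, 115 and 413 CPM. No mouse overlapped, and the log2 fold change was 4.93 ± 0.49 (SE, n = 8 mice; edgeR, adjusted p = 6.03e-08). Tnnt2, cardiac troponin T, did not overlap either and had a log2 fold change of 4.03 (edgeR, adjusted p = 8.21e-07). For Mb, the oxygen store myoglobin, it was 4.19, and for Actc1, cardiac actin, 4.82.

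The 8 highest genes by the naming rule were Myo18b, Nppb, Itgb1bp2, Ppp1r3c, Xirp2, Myom1, Casq2 and Hrc, with log2 fold changes from 6.06 to 6.78. Xirp2 belongs to the intercalated disc and Myom1 to the sarcomere's M-band, and Casq2 and Hrc bind calcium in the sarcoplasmic reticulum. Nppb encodes B-type natriuretic peptide, a hormone of strained cardiomyocytes. Its level in macrophages was 124 CPM at the lowest, 321 in the median and 750 at the highest on the myocyte-rich plates. It was 0, 1.44 and 31.4 CPM on the myocyte-poor plates, where 1 mouse had no UMI. Nppb did not overlap between the plates (log2 fold change 6.76 ± 0.73, SE, n = 8 mice; edgeR, adjusted p = 1.76e-07). Nppa, atrial natriuretic peptide, rose by a log2 fold change of 4.35, although in the 0w mice it stood at only 6.61 and 4.11 CPM on the myocyte-rich plate.

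Transcripts of respiration and fatty acid burning followed. Of 31 nuclear genes of oxidative phosphorylation, 24 rose and none fell (median log2 fold change 2.11). Cox8b, a heart and muscle form of a cytochrome c oxidase subunit, ranged from 508 to 2841 CPM on the myocyte-rich plates and from 5.78 to 421 CPM on the others. These ranges did not overlap (log2 fold change 4.37 ± 0.53, SE, n = 8 mice; edgeR, adjusted p = 7.82e-07). Atp5b, the catalytic subunit of ATP synthase, had a log2 fold change of 3.14. Of 16 fatty acid oxidation genes tested, 12 rose (median 2.74), among them Acadm, medium-chain acyl-CoA dehydrogenase, at 2.78. Of 28 mitochondrially encoded genes tested, 19 rose (median 2.70), with mt-Nd3, a subunit of complex I, at 3.30.

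Other lists held higher genes as well. Lpl, lipoprotein lipase, was the 1 higher gene of 11 lipid-associated macrophage genes, with a log2 fold change of 3.13 (edgeR, adjusted p = 2.12e-05). Its level in reference cardiomyocytes was 31.3 times that in reference macrophages. Of 13 hypoxia and glycolysis genes, 4 rose (Aldoa, Vegfa, Tpi1 and Bnip3, median of the list 1.28). Aldoa, the glycolytic aldolase, did not overlap between plates (216 to 1330.2 against 111 to 204 CPM; log2 fold change 2.14). Vegfa, Tpi1 and Bnip3 passed in the fit over mice and missed with 1 sum per plate (edgeR, adjusted p = 0.131, 0.144 and 0.134). Tpi1 was also lost without any 1 mouse of 0w or 2w (edgeR, adjusted p up to 0.0926). Of 5 mural cell markers tested, 2 rose, and Des, desmin of muscle cells, reached a log2 fold change of 4.66 while the pericyte gene Rgs5, at 1.87, missed with 1 sum per plate (edgeR, adjusted p = 0.145) and without any 1 mouse but 8w replicate 3 and 11w replicate 1 (up to 0.192).

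**Figure D4:**
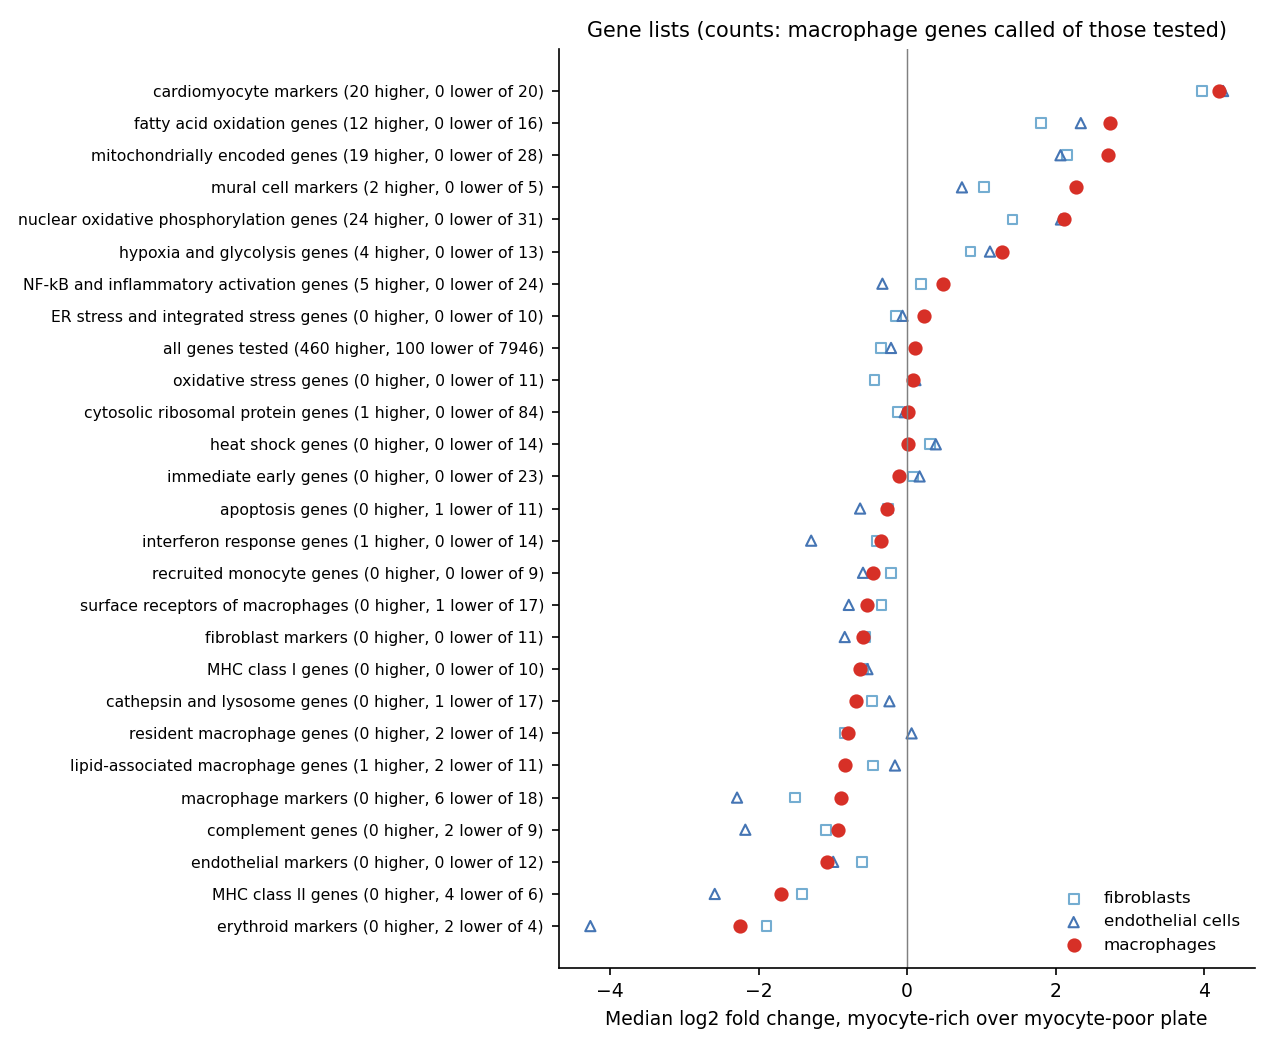
Median log2 fold change (myocyte-rich over myocyte-poor plate) of each gene list in macrophages, endothelial cells and fibroblasts, with the number of macrophage genes called higher or lower of those tested after each name. Cardiomyocyte markers have the highest median in macrophages (4.20), and MHC class II genes lie at -1.70 against 0.11 for all genes tested.

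A reference that used none of these 8 mice was set beside the fit. Genes were called cardiomyocyte-enriched where their level in 1962 cardiomyocytes of 5w replicates 4 to 7 was at least 8 times that in 63 macrophages of 5w replicates 2 and 3. These cardiomyocytes came from mice with 91.15% to 95.82% cardiomyocytes on the plate, and these macrophages from a plate with 0%. The reference thus holds the same kind of plate contrast as the fit, and cell type and plate cannot be told apart in it. Such genes were 599 of the 7946 tested (7.54%), but 240 of the 460 higher genes (52.2%) and 0 of the 100 lower genes. Their median log2 fold change was 2.41, against 0.04 for the other genes. With the mitochondrially encoded and the cardiomyocyte-enriched genes left out of the fit, 170 genes were higher and 62 lower.

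Of the 220 higher genes that were not enriched, 155 were at least 2 times higher in the reference cardiomyocytes, 19 were mitochondrially encoded and 42 were predicted genes (these sets overlap). The matching shares of all genes tested are not given, so the counts of this split are a description. A lower level in reference cardiomyocytes than in reference macrophages was held by 16, 11 of them after predicted genes were left out. These 11, chosen after their values were seen, were Git1, Tnfaip3, Cyfip2, Ccrn4l, Il6, Nfkb1, Areg, Mrps31, Ptgs2, Usp38 and Dcun1d2. They include Areg, a growth factor of the epidermal growth factor family (log2 fold change 2.68 ± 0.82, SE, n = 8 mice; edgeR, adjusted p = 0.0405), and genes of the nuclear factor kappa B (NF-kappaB) response.

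Of 24 NF-kappaB and inflammatory activation genes tested, 5 rose and none fell in edgeR (5.79% of all genes tested rose). DESeq2 called 7 higher and 1 lower (Cd83), and edgeR without mitochondrial genes had 3 higher and 1 lower of 22. The list's median log2 fold change was 0.48. The 5 were Il6, Ptgs2, Sod2, Tnfaip3 and Nfkb1, the last 2 named after their values were seen. NF-kappaB is a transcription factor that inflammatory signals release into the nucleus, where it binds short DNA motifs. Il6 and the prostaglandin enzyme Ptgs2 are outputs of that response, and Tnfaip3, which encodes the inhibitor A20, is a feedback brake on it. Promoters from RefSeq (GRCm38.p6), 250 bases before the start, held the 10-letter NF-kappaB consensus on either strand in 3 of the 5 entries for 4 of these genes, and in 7.25% of 32851 promoters. The 3 with a match, of Il6, Tnfaip3 and Sod2, were chosen for it and are shown 5′ to 3′, with each match in capitals. A match is a description of letters and not a bound site. The genes were taken from a list named for the NF-kappaB response, and matches of its other members are not given. The matches therefore cannot tell whether that response differed between the plates.

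Il6 (chr5:30012864-30013113, + strand): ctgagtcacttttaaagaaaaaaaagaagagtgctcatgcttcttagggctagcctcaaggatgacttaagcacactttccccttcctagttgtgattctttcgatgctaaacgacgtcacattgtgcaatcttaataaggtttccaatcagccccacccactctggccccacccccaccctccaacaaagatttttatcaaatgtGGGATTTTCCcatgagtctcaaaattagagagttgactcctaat
Tnfaip3 (chr10:19015411-19015660, - strand): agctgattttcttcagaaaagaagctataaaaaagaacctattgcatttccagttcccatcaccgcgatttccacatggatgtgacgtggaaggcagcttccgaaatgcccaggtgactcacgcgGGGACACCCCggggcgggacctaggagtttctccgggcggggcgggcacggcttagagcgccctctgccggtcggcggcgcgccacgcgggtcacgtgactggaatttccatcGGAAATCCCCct
Sod2 (chr17:13007589-13007838, + strand): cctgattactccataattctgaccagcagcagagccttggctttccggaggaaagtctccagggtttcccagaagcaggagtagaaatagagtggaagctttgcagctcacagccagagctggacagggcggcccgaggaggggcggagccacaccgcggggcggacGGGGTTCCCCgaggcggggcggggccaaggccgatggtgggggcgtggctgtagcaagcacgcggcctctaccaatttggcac

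The match in Il6 lies 44 bases before the start, that in Sod2 83 bases before, and the pair in Tnfaip3 lie 125 and 12 bases before. A second Tnfaip3 start and Ptgs2 had 0 matches in their windows. Tnfaip3 in macrophages was 53.2 CPM at the lowest, 94.3 in the median and 146 at the highest on the myocyte-rich plates, and 0, 28.2 and 43.9 CPM on the others. The plates did not overlap in this gene, and the log2 fold change was 2.29 ± 0.69 (SE, n = 8 mice; edgeR, adjusted p = 0.0364). In fibroblasts the fitted difference of Tnfaip3 was 2.39 and did not pass (edgeR, adjusted p = 0.178).

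Il6 had few molecules, 348 UMIs on the myocyte-rich and 113 on the myocyte-poor plates. It was at 0, 19.3 and 29.2 CPM (lowest, median, highest) on the former and at 0, 0.196 and 8.40 CPM on the latter, higher in 6 of 8 mice with overlapping ranges. Its log2 fold change was 4.71 ± 1.29 (SE, n = 8 mice; edgeR, adjusted p = 0.0195), and the call was lost without either 0w mouse or without replicate 2 of 2w or of 8w (edgeR, adjusted p from 0.0571 to 0.0632). Sod2, mitochondrial superoxide dismutase, had a log2 fold change of 1.86 and was likewise lost without either 8w mouse, replicate 2 of 0w or replicate 1 of 2w (edgeR, adjusted p from 0.0605 to 0.113). Ptgs2 had a log2 fold change of 4.28 on 276 and 49 UMIs. With 1 sum per plate none of the 5 passed (edgeR, adjusted p from 0.0944 for Sod2 to 0.160 for Il6). With mitochondrial and cardiomyocyte-enriched genes left out, 2 of them passed.

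Among the lower genes were genes of antigen presentation by MHC class II. Of 6 MHC class II genes tested, 4 fell (H2-Ab1, H2-Aa, Cd74 and H2-DMa, the last named after its values were seen), none rose, and the list's median was -1.70. H2-Ab1, a chain of the class II molecule itself, was 98.6 CPM at the lowest, 428 in the median and 1069.6 at the highest on the myocyte-rich plates. The myocyte-poor plates had 1024, 2366 and 4802 CPM of it. All 8 mice were lower on the myocyte-rich plate although the ranges overlapped slightly, with a log2 fold change of -2.50 ± 0.41 (SE, n = 8 mice; edgeR, adjusted p = 6.87e-05), and the call held with each mouse or each plate pair left out. H2-Aa fell by 1.61 on the log2 scale, a call lost without 0w replicate 1 (edgeR, adjusted p = 0.0527), the 0w pair (0.0853) or the 2w pair (0.0941). Cd74, the invariant chain that guides class II molecules, fell by 1.66, a call that was lost without any 1 of 6 mice, all but 8w replicate 3 and 11w replicate 1 (edgeR, adjusted p from 0.0583 to 0.190). With 1 sum per plate 4 class II genes fell, and with mitochondrial and cardiomyocyte-enriched genes left out 2 of 6 fell. Reference cardiomyocytes had 0.0022 times the H2-Ab1 level of reference macrophages. Added cardiomyocyte RNA can lower such genes on the TMM scale as well, and its part in these falls was not tested.

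Genes that define macrophages were also lower after scaling with TMM factors. TMM scales all genes of a sum alike, so added cardiomyocyte RNA can still lower genes that cardiomyocytes hardly express. Levels in reference cardiomyocytes were 0.0091 (Cd14), 0.0032 (C1qb), 0.0021 (Cd68) and 0.023 (Apoe) times those in reference macrophages. The part of added RNA in these falls was not tested. Of 18 macrophage markers, 6 fell and none rose (median -0.89), namely Cd14, Cd68, C1qb, C1qc, Fcer1g and Aif1. Cd14, a receptor for bacterial lipopolysaccharide, had a lowest level of 84.9 CPM, a median of 159 and a highest of 657 on the myocyte-rich plates, and 327, 833 and 1136 CPM on the others. It was lower in 8 of 8 mice with overlapping ranges (log2 fold change -1.91 ± 0.41, SE, n = 8 mice; edgeR, adjusted p = 0.00176). C1qb, a chain of the first complement component, fell by 1.79 and Cd68, a lysosomal glycoprotein, by 1.93. Apoe, the lipid carrier apolipoprotein E, fell by 2.13 (edgeR, adjusted p = 0.00129), and it fell in fibroblasts as well (-2.09). These 4 calls were lost with the 0w plate pair left out (edgeR, adjusted p from 0.0790 for Apoe to 0.186 for Cd68), and that of C1qb also with the 2w pair left out (0.0681). Cd14, C1qb, Cd68 and Apoe kept their calls with each single mouse left out and with 1 sum per plate.

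Genes that mark macrophage subsets gave few calls. Of 14 resident macrophage genes, Pf4 and Cbr2 fell, and neither passed with 1 sum per plate (edgeR, adjusted p = 0.117 and 0.0826) or without either 2w mouse, replicate 2 of 0w or replicate 2 of 8w (adjusted p up to 0.199). None of 9 recruited monocyte genes passed in the main edgeR fit or DESeq2 or had an unadjusted p under 0.05 (0 genes, median -0.46). With thinned cells only 1 of these genes was tested, and edgeR called it lower (-1.10). Lyve1, a hyaluronan receptor of resident macrophages, had a fitted difference of -0.54 and Ccr2, the chemokine receptor of recruited cells, one of -0.04 (edgeR, adjusted p = 0.699 and 0.992). Mrc1, the mannose receptor CD206, was at -0.61 and Lyz2, lysozyme, at -0.94, and neither passed (edgeR, adjusted p = 0.503 and 0.253). C1qa and Spp1 did not pass either. Of 17 lysosomal genes, Ctsc (cathepsin C) alone fell, by 1.43, a call that was lost without any 1 mouse of 0w or 2w or without 8w replicate 2 (edgeR, adjusted p from 0.0800 to 0.129). Cdkn1a, the cell cycle inhibitor p21 in the apoptosis list, fell by 1.60.

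**Figure D5:**
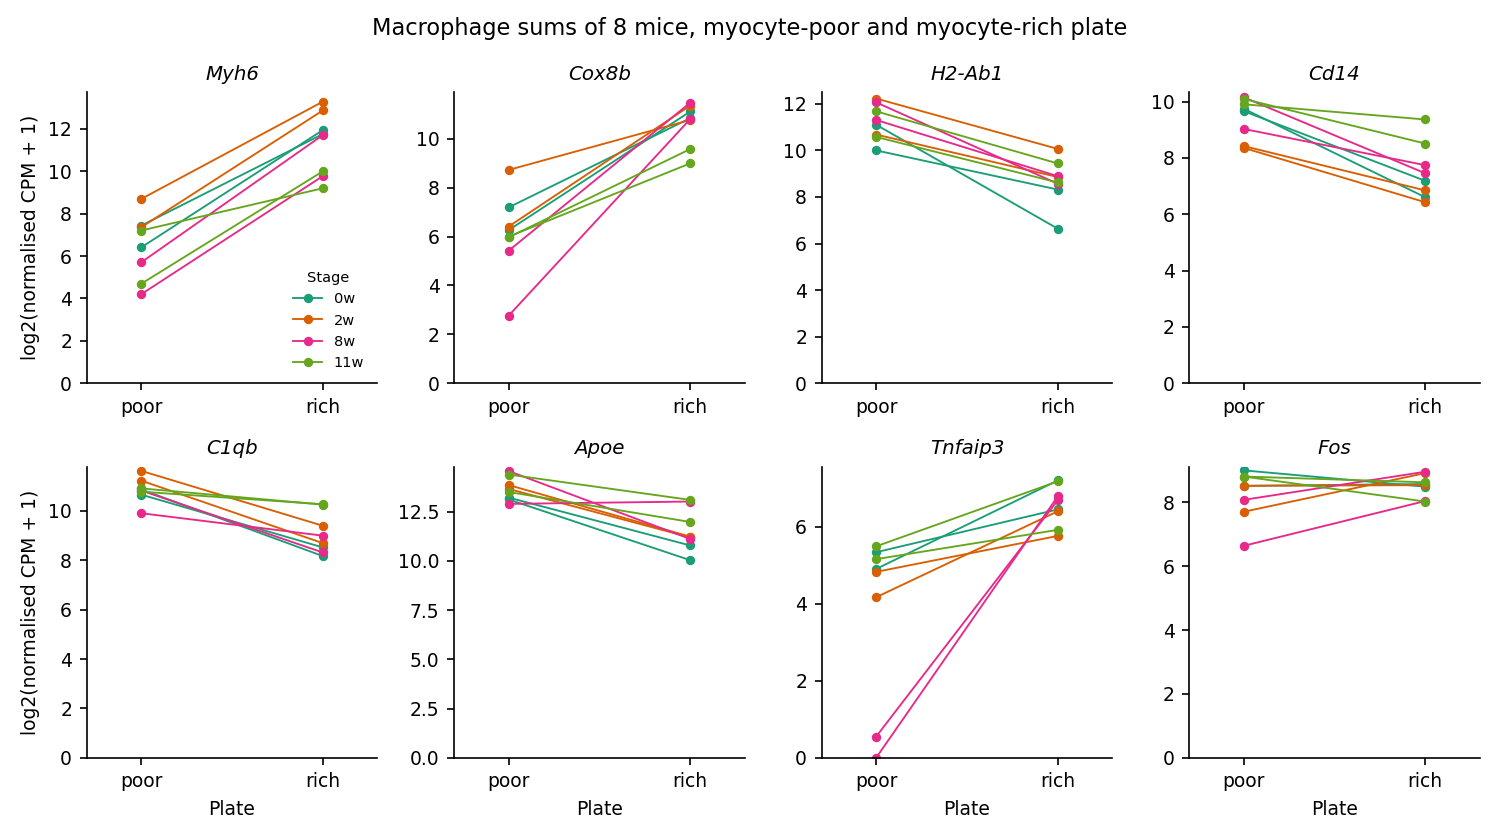
Level of 8 genes in macrophages (log2 of normalised CPM plus 1) on the myocyte-poor and myocyte-rich plate, 1 line per mouse, coloured by stage. Myh6, Cox8b and Tnfaip3 rise in every mouse, H2-Ab1, Cd14 and C1qb fall in every mouse, Apoe falls in all mice but 1, and Fos moves both ways.

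Genes of the dissociation response gave no call in the edgeR fit over mice. Of 23 immediate early genes tested, none passed, 10 had a positive difference and the median was -0.11. At an unadjusted p under 0.05, edgeR had 1 of them higher and 1 lower, and DESeq2 called 2 higher (Atf3 and Maff). In edgeR with RLE factors 1 of the 23 was called higher, 12 were positive and the median turned to 0.03, and with cells thinned to equal depth 1 of 11 was called higher. Fos was 259 CPM at the lowest, 374 in the median and 495 at the highest on the myocyte-rich plates and 98.3, 364 and 510 CPM on the others, with 5 of 8 mice higher. Its log2 difference was 0.25 ± 0.40 (SE, n = 8 mice; edgeR, adjusted p = 0.846). Those of Jun and Egr1 were both 0.02, while Atf3, a stress-induced repressor, had 1.35 and was higher in 8 of 8 mice without passing (edgeR, adjusted p = 0.109). On the other scale, CPM without mitochondrial genes and without TMM factors, the summed immediate early genes were 0.741-fold, lower in 8 of 8 mice (exact sign-flip permutation test, adjusted p = 0.0141). Added cardiomyocyte RNA lowers the share of every other gene on that scale, where macrophage markers were 0.362-fold. Its part in the fall of the immediate early genes was not tested. None of 14 heat shock genes passed in edgeR (2 higher and 1 lower at an unadjusted p under 0.05), while DESeq2 called Hspd1 and Bag3 higher, and thinned cells gave 1 higher and 1 lower of 11. Of 10 endoplasmic reticulum stress genes and 11 oxidative stress genes none passed in edgeR or DESeq2 over mice, with 1 lower in each list at an unadjusted p under 0.05. With 1 sum per plate 1 of 13 oxidative stress genes was called higher, and with thinned cells 1 of 7 was called lower. Il1b and Cxcl2, cytokine genes of activated macrophages, had differences of -0.06 and 0.45 (edgeR, adjusted p = 0.978 and 0.620).

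Of 14 interferon response genes, Rsad2, an antiviral enzyme, alone rose (log2 fold change 2.18; edgeR, adjusted p = 0.0220), while 5.79% of all genes tested rose. The list's median was -0.35, and DESeq2 also called Bst2 lower. Rsad2 was 28.4 CPM at the lowest, 103 in the median and 371 at the highest on the myocyte-rich plates. It was 5.78, 32.7 and 143 CPM on the others, and higher on the myocyte-rich plate in 7 of 8 mice. The call was lost without either 0w mouse, without replicate 2 of 2w or of 8w, and with 1 sum per plate (edgeR, adjusted p up to 0.177). Cytosolic ribosomal protein genes had a median of 0.02, with 1 of 84 higher. That gene was Rpl3l, a form of striated muscle, and its call was lost with 1 sum per plate (edgeR, adjusted p = 0.229) and without any 1 mouse of 0w or 2w or 11w replicate 1 (up to 0.0995).

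The 8 lowest genes by the naming rule included short noncoding RNAs and genes of blood cells. Rpph1, Rn7sk and Rny3 are short noncoding RNAs made by RNA polymerase III. Rn7sk was 14.8 CPM at the lowest, 48.2 in the median and 288 at the highest on the myocyte-rich plates and 232, 394 and 1388 CPM on the others, lower in 8 of 8 mice (log2 fold change -3.03 ± 0.47, SE, n = 8 mice; edgeR, adjusted p = 3.15e-05). Rpph1 fell by 3.64 and Rny3 by 2.76, and neither passed with 1 sum per plate (edgeR, adjusted p = 0.437 and 0.153), nor Rny3 without 0w replicate 2 (0.0517). Hbb-bt, a beta globin of red blood cells, and Ighm, the heavy chain of immunoglobulin M, fell by 2.57 and 2.53. The call of Hbb-bt was lost without 0w replicate 2, 2w replicate 1 or either 8w mouse (edgeR, adjusted p from 0.119 to 0.136), and with 1 sum per plate (0.190). That of Ighm was lost without any 1 mouse of 0w or 2w or 8w replicate 2 (from 0.139 to 0.178). Of the erythroid markers 2 of 4 tested fell, and 0 of 4 with 1 sum per plate, with RLE factors, with thinned cells or with mitochondrial and cardiomyocyte-enriched genes left out, while DESeq2 called all 4 lower. The other 3 genes, Eif2ak2, Ptgs1 and Lsm10, fell by 3.08, 3.01 and 2.52 and missed with 1 sum per plate. Eif2ak2 was lost without any 1 mouse but 2w replicate 2 and 11w replicate 2, Ptgs1 without any but 8w replicate 2 and 11w replicate 2, and Lsm10 without any but 11w replicate 2 (edgeR, adjusted p up to 0.186).

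The same plates were compared in endothelial cells (7 mice with enough cells) and fibroblasts (8 mice). In endothelial cells 179 of 4815 genes were higher (3.72%) and 21 lower (0.436%), and in fibroblasts 248 of 7142 (3.47%) and 97 (1.36%). Of the 460 higher genes of macrophages, 346 were tested in endothelial cells, and 336 of these had the same direction. Called higher there as well were 170, which is 37% of the macrophage calls (untested genes included) and 95% of the endothelial calls. In fibroblasts 404 were tested and 386 had the same direction. With fibroblasts 225 calls were shared, 48.9% and 90.7%. The 20 cardiomyocyte markers had medians of 4.26 in endothelial cells and 3.97 in fibroblasts. Of the 100 lower genes, 65 were tested in endothelial cells, and 61 of these had the same direction. There 9 were also called lower (42.9% of the endothelial calls). In fibroblasts 73 were tested, 71 had the same direction and 19 were called lower (19.6% of the fibroblast calls). Types of a mouse share its plates, so this overlap does not add plates. By edgeR's interaction test, 0 of 6593 genes passed for a difference in plate effect between macrophages and endothelial cells (229 at an unadjusted p under 0.05). Between macrophages and fibroblasts 0 of 7704 passed (356). The lack of calls does not show equal effects, because standard errors were large. Ptgs1, for example, had a macrophage minus endothelial difference of -3.91 ± 1.51 (SE) without passing.

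The 4 plate pairs were compared last. By edgeR's joint test for a difference among pairs, 1 gene of 7946 (0.0126%) passed, the predicted gene Gm26339. At an unadjusted p under 0.05 there were 358. With only 4 pairs, the lack of further calls does not show equal effects. Fitted differences had the same sign in all 4 pairs for 1272 higher (16%) and 837 lower (10.5%) genes. Myh6 had log2 differences of 4.94, 5.06, 5.88 and 3.68 in the pairs of 0w, 2w, 8w and 11w. H2-Ab1 had -3.08, -1.997, -2.96 and -2.10. Cd68 had -3.09, -1.75, -2.22 and -0.61, and C1qb -2.42, -2.38, -1.72 and -0.58, so in both the smallest difference was at 11w, where the matrix totals also fell short of the authors' on the myocyte-rich plate. The pairs also differ in stage, and their parts cannot be told apart.

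The authors' subclusters of macrophages were divided between the plates, which is a description because they were formed from the same expression values. Subcluster MP1 held 219 cells of the myocyte-rich and 0 of the myocyte-poor plates, 55.3% of the macrophages of the former. MP2 held 128 and 20. The order was the opposite in MP3, with 13 and 138 cells, in MP4, with 3 and 162, in MP5, with 9 and 81, and in MP7, with 5 and 66. MP8 had 10 and 56 cells, MP6 had 3 and 17, and MP9 had 6 and 17. All 219 MP1 cells came from the mice of 0w, 2w and 8w replicate 2, while 8w replicate 3 and both 11w mice had none, and in those 3 mice MP2 held most macrophages of the myocyte-rich plate.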

How the data were processed

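Single cells of mouse left ventricle were sequenced from polyadenylated RNA. The deposited matrix holds UMI counts per gene and cell, whole numbers that the authors did not normalise, for 36950 genes and 11492 cells. Mouse, type and subcluster of a cell were taken from the authors' annotation. The submitters' processing notes list Subread 1.4.6-p1, STAR 2.5.2b and featureCounts as tools and GRCh37 and mm10 as builds. What each was used for, which gene annotation and strand setting applied, and how UMIs were merged is not given in the sources used here. Plates were taken from the authors' annotation as well.

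Counts of MP cells were summed per mouse and plate, with at least 5 cells each. Sums were fitted with edgeR 4.0.16 in R 4.3.3 (filterByExpr on plate class, TMM factors, robust glmQLFit, two-sided glmQLFTest) with the mouse as a block and plate class as the effect. P-values were adjusted after Benjamini-Hochberg across the genes tested, with a threshold of 0.05. The mouse pairs the samples because both sums come from the same animal. Measures per mouse were compared with exact sign-flip permutation tests. Doublets were not called, and no cell was filtered, in the main fit. Named genes were, of called genes at log2 CPM 5 or above on average, 1 sign in all 4 pairs and no predicted, mitochondrial or ribosomal protein name, the 8 highest and 8 lowest, up to 3 members of each list with the smallest p, and a fixed set. Members, lists and tests were chosen with earlier results of these data known. The edgeR script was tested on simulated counts. T cell markers (0 of 12 tested), B cell markers (1 tested, Ighm, lower) and neutrophil markers (1 tested, not called) were too sparse to describe. MHC class I (10 tested) had no call in the main edgeR fit (2 lower at an unadjusted p under 0.05, and 2 in DESeq2). In edgeR without mitochondrial genes 1 of 11 was lower, and with thinned cells 1 of 3. Of the complement genes (9 tested) C1qb and C1qc fell. Of the surface receptors (17 tested) Cd14 fell. Fits with other settings, and with DESeq2 1.42.0, are in the closing section.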

Additional observations from a re-analysis of the deposited data

Results flagged for a closer look

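A mouse far from the other 7 was looked for in 127 sets of values (each measure by plate class, and each named gene's per-mouse log2 difference of normalised CPM plus 1), and 12 sets had one. Chance flags about 1 in 20 such groups. In 8w replicate 3, whose myocyte-poor plate held only 6 macrophages, the difference between plates stood far above the others for Jun (3.75), Atf3 (8.18), Lyve1 (4.68), Ly6c2 (5.69), Hspd1 (5.30), Xbp1 (6.36) and Acadm (5.15). In 11w replicate 2 the difference of Myh6 was the lowest of the mice (2.00), and that of Cd63 was the highest (0.51). In 11w replicate 1 Dcn, a fibroblast gene, had the lowest difference (-4.68), and in 8w replicate 2 Egfl7, an endothelial gene, had the lowest (-5.27). Among the myocyte-poor plates, macrophages of 2w replicate 2 had the highest cardiomyocyte marker level, 13756 CPM. The plate difference of Gm26339, a predicted gene, differed among the 4 plate pairs (edgeR joint test, adjusted p = 0.00859).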

How the results depend on the processing

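Only 4 plate pairs repeat the comparison, and single sums were small (6 cells in 8w replicate 3). Against 460 higher and 100 lower genes, the counts were 1053 and 300 with DESeq2, 300 and 52 with 1 sum per plate, 454 and 198 with at least 10 cells per sum, 192 and 93 with cells thinned to equal depth (766 genes tested), 204 and 14 without the 0w plate pair, and 223 and 32 without the 2w pair. Without each mouse in turn they were 313 to 560 and 40 to 198. With no replicate block they were 440 and 127, and none of the 560 calls changed direction without the pairing. RLE factors gave 514 and 77. Chosen after seeing the data, leaving out mitochondrial and cardiomyocyte-enriched genes gave 170 and 62, only cells marked PI in the annotation (a mark the labels do not explain) 312 and 72, and only cells marked API 201 and 7. In every setting all of the 560 called genes that were still tested kept their direction. With cardiomyocyte enrichment set at 4-fold or 16-fold, 330 or 171 of the 460 higher genes were enriched, and 0 of the 100 lower genes at either. Of the measures, the fibroblast marker difference (-0.97 on the log2 scale) passed without very deep cells (-1.61) and ranged from -1.20 to -0.53 without each mouse, passing without 8w replicate 2. That of UMIs without mitochondrial genes ranged from -0.12 (without 11w replicate 2) to 0.35. The fit on the most common subcluster alone was not run, since MP1 has 0 cells on myocyte-poor plates. Why values moved was not tested.

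Among the named genes, each value below had the opposite sign to the reported one (adjusted p of 0.479 or more in edgeR or DESeq2), apart from the ranges without each mouse, which span both signs. Il1b (-0.06) was at 0.037 with RLE factors, 0.038 with DESeq2, 0.11 with no replicate block, 0.21 with 1 sum per plate, 0.17 thinned, 0.24 without the 0w pair, 0.029 in PI and 1.02 in API cells, and -0.22 to 0.098 without each mouse. Ccr2 (-0.04) was at 0.086 with RLE factors, 0.18 with DESeq2, 0.40 with no replicate block, 0.52 without very deep cells, 1.13 without the 2w pair, 0.0065 with mitochondrial and cardiomyocyte-enriched genes left out, and -0.91 to 0.77 without each mouse. Jun (0.02) was at -0.040 with no low-count filter, -0.046 with no replicate block, -0.13 with stage as the block, -0.32 with 1 sum per plate, -0.035 without mitochondrial genes, -0.39 with at least 10 cells, -0.38 and -0.030 without the 8w and 11w pairs, -0.11 in PI and -0.17 in API cells, and -0.39 to 0.21 without each mouse. Egr1 (0.02) was at -0.022 with no low-count filter, -0.0040 with stage as the block, -0.21 with 1 sum per plate, -0.045 without mitochondrial genes, -0.090 with at least 10 cells, -0.028 thinned, -0.091 and -0.046 without the 8w and 11w pairs, and -0.090 to 0.076 without each mouse. Fos was at -0.023 thinned, -0.0039 without very deep cells and -0.047 without the 8w pair. Spp1 was at 2.32 with no replicate block, Lyve1 at 0.018 without very deep cells, Thbs1 at 0.097 without the 0w pair, Xbp1 at -0.0026 without the 8w pair, and in PI cells Hspa1a was at 0.070, Mrc1 at 0.26 and Cxcl2 at -0.31.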
